A study of Homo sapiens with 12 samples.

Results

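Heat shock proteins and their co-chaperones were followed in HK-2 cells, an immortalised line from the tubule epithelium of a human kidney. The 10 genes were chosen by name with earlier results of these data known. Their expression was read from a deposited table of 12 Affymetrix arrays. The groups were cells kept with Aa, the treatment's name in the labels, at a dose labelled high for 24 h or for 48 h, and control cells given only the vehicle for as long. Each of the 4 groups had 3 arrays. The labels call them biological replicates without saying that they came from separate cultures, so the p-values measure the spread between these samples. All groups came from 1 cell line in 1 medium, and the sources used here state neither what Aa is nor its concentration or vehicle. A member counted as measured where a probe set was annotated to that gene alone, and of several such probe sets the one with the highest mean over the 12 arrays was used. This gave values for 9 of the 10 members, all over log2 4 on every array, out of 11184 genes tested. HSPA8, the constitutively made cytosolic member of the HSP70 family, is named only by 4 probe sets that also list other genes, and it is not counted below.

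Molecular chaperones bind unfolded or partly folded proteins. HSP70 takes up such clients with help from J-domain proteins, which deliver them and speed its use of ATP, and from nucleotide exchange factors, which make it let go. HSP90 acts on later folding stages of kinases and steroid receptors together with its own co-chaperones. When misfolded protein builds up, the transcription factor HSF1 forms trimers and binds heat shock elements, which are inverted repeats of a short unit built around GAA, and many of the genes described here are known as its targets. Proximal tubule cells are known to raise several heat shock proteins after ischaemia and toxic injury.

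The start regions of the members are shown first because HSF1 is known to act through elements near gene starts. RefSeq windows (GRCh38.p14), taken here from 250 bases before to 30 after each annotated start, matched 9 of the 10 members with 14 windows; FKBP4 had no entry. A pair of units was searched as GAANNTTC or TTCNNGAA, and 3 units in a row as GAANNTTCNNGAA or TTCNNGAANNTTC. Each pair reads the same on both strands, the longer 2 are each other's reverse complement, and every run of 3 holds 2 overlapping pairs. Among all 35116 windows of this length 12.8% held a pair and 0.484% held 3 units in a row, as did 8 and 4 of the 14 member windows. Counted by gene, 15.4% of 27305 genes had a window with a pair and 0.601% one with 3 units in a row. A pair was found in 7 of 9 members and 3 units in a row in 4 of 9, namely HSPA8, DNAJA1, HSP90AA1 and CHORDC1. The windows below are those of the 3 measured members with 3 units in a row, of DNAJB1 with its separate pairs, and of BAG3, in whose window no such pair stands. They read 5′ to 3′ on the gene's strand, with every pair in capitals.
CHORDC1: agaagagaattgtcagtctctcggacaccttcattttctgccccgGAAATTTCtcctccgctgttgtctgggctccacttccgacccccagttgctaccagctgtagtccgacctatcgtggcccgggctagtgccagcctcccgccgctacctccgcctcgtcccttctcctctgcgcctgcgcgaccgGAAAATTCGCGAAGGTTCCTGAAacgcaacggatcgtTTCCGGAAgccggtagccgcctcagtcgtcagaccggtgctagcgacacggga
DNAJA1: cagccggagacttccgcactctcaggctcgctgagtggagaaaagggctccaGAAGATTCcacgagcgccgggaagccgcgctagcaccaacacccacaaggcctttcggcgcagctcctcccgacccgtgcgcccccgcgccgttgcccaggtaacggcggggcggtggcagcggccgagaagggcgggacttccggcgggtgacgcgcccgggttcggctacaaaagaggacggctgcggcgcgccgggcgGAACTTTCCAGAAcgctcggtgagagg
HSP90AA1: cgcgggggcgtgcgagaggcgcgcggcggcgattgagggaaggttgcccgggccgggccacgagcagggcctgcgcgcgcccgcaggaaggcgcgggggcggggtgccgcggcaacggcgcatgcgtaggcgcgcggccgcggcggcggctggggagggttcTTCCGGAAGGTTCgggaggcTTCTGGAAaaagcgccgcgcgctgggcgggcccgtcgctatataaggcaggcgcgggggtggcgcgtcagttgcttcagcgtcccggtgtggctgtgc
DNAJB1: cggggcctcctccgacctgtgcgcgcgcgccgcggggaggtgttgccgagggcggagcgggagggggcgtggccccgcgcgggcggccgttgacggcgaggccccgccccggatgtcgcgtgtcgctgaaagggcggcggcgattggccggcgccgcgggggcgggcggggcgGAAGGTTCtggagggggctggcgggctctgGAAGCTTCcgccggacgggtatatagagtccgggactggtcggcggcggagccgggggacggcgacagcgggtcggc
BAG3: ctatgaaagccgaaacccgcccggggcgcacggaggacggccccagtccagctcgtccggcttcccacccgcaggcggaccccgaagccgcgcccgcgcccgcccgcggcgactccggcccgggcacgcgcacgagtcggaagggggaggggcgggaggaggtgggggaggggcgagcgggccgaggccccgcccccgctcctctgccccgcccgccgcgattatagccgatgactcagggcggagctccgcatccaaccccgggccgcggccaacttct
The CHORDC1 window (chr11:90223020-90223299, minus strand) held 6 pairs, of which 4 overlapped in 1 unbroken run that begins 60 bases upstream of the start. The DNAJA1 window (chr9:33025023-33025302, plus strand) held 3 units in a row from base 4 after the start. In the HSP90AA1 window (chr14:102087015-102087294, minus strand), the only one of its 2 windows with a pair, the run begins 88 bases before the start. The DNAJB1 window shown (chr19:14518368-14518647, minus strand) is 1 of 3 for that gene. The BAG3 window is chr10:119651130-119651409, plus strand. A match of letters is a description of the window and shows no binding in these cells.

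Values are log2 expression made by the authors with GCRMA, changes are differences of group means on that scale, and levels of different genes are not compared. A gene was called changed at a Benjamini-Hochberg adjusted p under 0.05 over all 11184 genes by limma, which also gives every adjusted p below. Of the epithelial markers KRT8, KRT18, KRT19, EPCAM and CDH1, 5 of 5 were over log2 4 on every array. Their summed level ranged from log2 14.84 to 15.02 in control and 14.38 to 14.59 in Aa cells at 24 h, and from 14.63 to 14.89 and 14.36 to 14.72 at 48 h, and mean CDH1 was 7.17 and 5.48 at 24 h and 7.22 and 5.95 at 48 h; the part of this in the results was not tested. Of 12 kidney and proximal tubule markers on the array, only PAX8 and SLC3A1 were over it on at least 3 arrays, and 9, among them LRP2, CUBN and AQP1, were under it on all 12. Of 5 leukocyte markers 0 were over it on any array, and of 5 endothelial markers 4 never were, while TEK was on 11. Of 6 fibroblast markers COL1A2, COL3A1 and PDGFRB never were. The fibroblast markers COL1A1, DCN and LUM were over it on all 12 arrays. The summed kidney list ranged from log2 11.33 to 11.44 in control and 10.62 to 11.03 in Aa cells at 24 h, and from 11.60 to 11.82 and 10.15 to 10.45 at 48 h. The summed fibroblast list ranged from log2 12.26 to 12.77 in control and 11.85 to 12.35 in Aa cells at 24 h, and from 12.18 to 12.44 and 12.02 to 12.24 at 48 h. The 3' minus 5' difference of the ACTB and GAPDH control probe sets, a sign of RNA quality, averaged 0.306 in control and 0.394 in Aa cells at 24 h, and 0.319 and 0.542 at 48 h; the part of these differences in the changes below was not tested. Scaling to the bacterial hybridisation controls instead lowered the median change of all genes by 0.28 at 24 h and by 0.44 at 48 h, and turned the split of called genes from 53.6% to 29.9% upward at 24 h and from 47.5% to 23.2% at 48 h. Changes are therefore given relative to all transcripts.

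**Figure D1:**
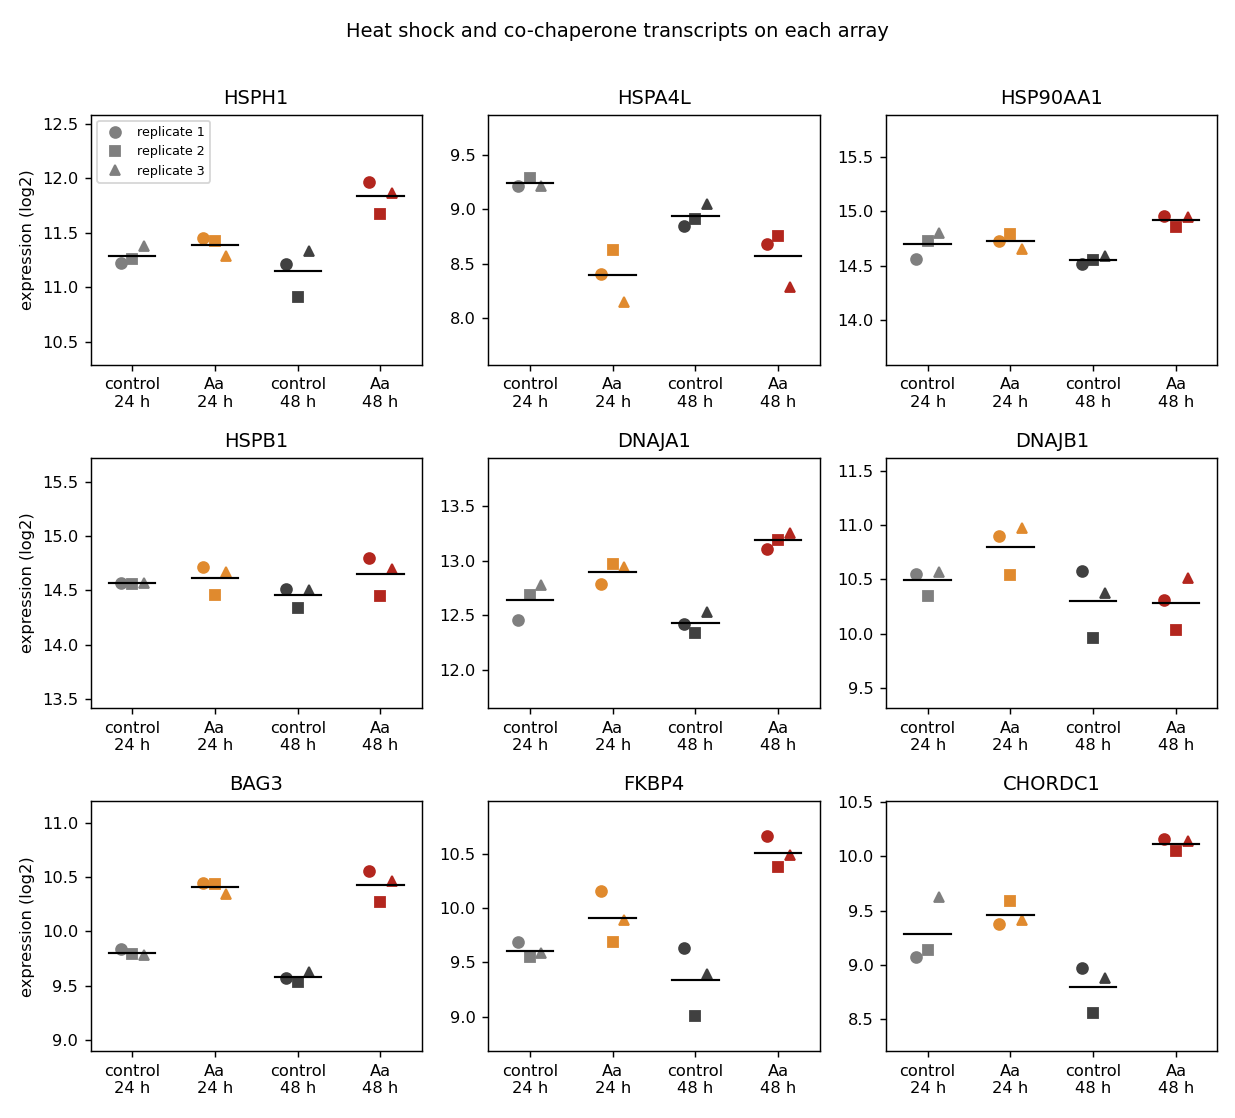
Expression (log2, y axis) of the 9 measured members on each of the 12 arrays, by group (x axis), with a symbol for each replicate number and a bar at the group mean; every panel spans the same range of log2 units around its own values. At 48 h the 3 Aa arrays lie above the 3 control arrays for HSPH1, HSP90AA1, DNAJA1, BAG3, FKBP4 and CHORDC1, and below them for HSPA4L.

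After 24 h of Aa, 1 member was higher and 1 was lower. BAG3 rose 1.52-fold and HSPA4L, in the probe set used, fell 1.8-fold, while 7 of 9 members did not pass. Over all genes tested 26.3% were higher and 22.8% lower at this time. The median change of the 9 members was 0.18, beside 0.02 for all genes. After 48 h of Aa, 6 members were higher, namely CHORDC1, FKBP4, BAG3, DNAJA1, HSPH1 and HSP90AA1. Of the 9 measured members HSPA4L alone was lower, in the probe set used. HSPA8 is not among these 9, and the 4 probe sets that list it beside other genes fell at 48 h. RNA came from whole cultures, so fewer cells with a transcript and less of it per cell cannot be told apart. Over all genes 30.6% were higher and 33.9% lower at 48 h. The median of the members was 0.69, beside -0.03 for all genes. Groups did not overlap for 2 members upward and 1 downward at 24 h, where 30.8% and 29.0% of all genes showed this, and for 6 upward and 1 downward at 48 h, where 33.0% and 36.1% did. The members were chosen with results of these data known, so these counts are a description.

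Same-numbered samples of different groups deviated together, and adding the replicate number to the model as a block moved the count at 24 h. With this block 4 of 9 members were higher at 24 h (32.5% of all genes) in place of 1, with DNAJA1, DNAJB1 and FKBP4 added. At 48 h it gave 7 in place of 6 (35.3% of all genes), with HSPB1 added. With hybridisation-control scaling 0 members were higher at 24 h (14.7% of all genes) and 3 at 48 h (1806 genes of 11294 in all), namely BAG3, CHORDC1 and FKBP4.

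**Figure D2:**
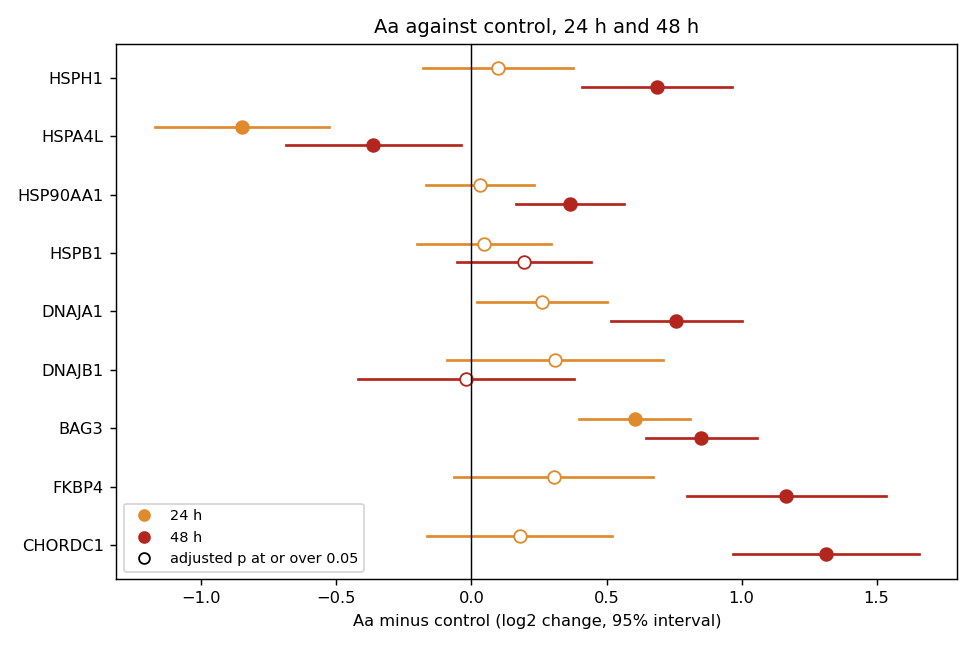
Change from control to Aa (log2, x axis) for each measured member at 24 h (orange) and 48 h (red), with unadjusted 95% intervals from limma; filled points have an adjusted p under 0.05. The 48 h point lies to the right of the 24 h point for 8 members and to its left for DNAJB1.

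HSPH1 encodes an HSP110 protein, a nucleotide exchange factor of HSP70 that also keeps aggregated clients in a state that can be refolded. At 24 h its values were 11.22, 11.26 and 11.38 in control and 11.45, 11.42 and 11.28 in Aa cells, and the groups overlapped (change 0.10, 95% interval -0.18 to 0.38, adjusted p = 0.548). At 48 h they were 11.21, 10.91 and 11.33 in control and 11.97, 11.67 and 11.86 in Aa cells, and every Aa array was above every control array. The rise was 1.61-fold (log2 change 0.69, SE 0.126, adjusted p = 0.000614). A second probe set rose by 1.07 (adjusted p = 0.000397), and the remaining one, at a mean of 5.90 in Aa cells at 48 h, had a change of 0.11 (adjusted p = 0.612). With hybridisation-control scaling the change was 0.25 (adjusted p = 0.206).

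HSPA4L encodes a relative of HSPH1 in the HSP110 family. In the probe set used, values at 24 h were 9.22, 9.29 and 9.22 in control and 8.40, 8.62 and 8.15 in Aa cells, with no overlap. The fall was 1.8-fold (log2 change -0.85, SE 0.147, adjusted p = 0.00067). At 48 h values were 8.85, 8.91 and 9.05 in control and 8.68, 8.75 and 8.29 in Aa cells, again with no overlap (log2 change -0.36, adjusted p = 0.0482). The call at 48 h lay at the edge of the threshold. It was lost in 9 of the 12 fits that left out 1 array, with adjusted p from 0.0318 to 0.192 over all 12; only without Aa 24 h replicate 2 or 3 or Aa 48 h replicate 2 was it kept. The gene's other probe set went the opposite way. It read 7.85 in control and 8.59 in Aa cells on average at 24 h, a change of 0.73 (SE 0.218, adjusted p = 0.0161), and its change at 48 h was 0.36 (adjusted p = 0.165). The mean of both probe sets changed by -0.06 at 24 h (adjusted p = 0.789), so no direction is given for the gene as a whole.

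HSP90AA1 encodes HSP90 alpha, the stress-inducible cytosolic form of HSP90. Values at 24 h were 14.57, 14.72 and 14.80 in control and 14.73, 14.79 and 14.66 in Aa cells (change 0.03, 95% interval -0.17 to 0.23, adjusted p = 0.8). At 48 h they were 14.52, 14.55 and 14.59 in control and 14.96, 14.86 and 14.94 in Aa cells, so that the groups lay apart with little spread in either. The rise was 1.29-fold (log2 change 0.36, SE 0.0907, adjusted p = 0.00449). The gene's 3 other probe sets changed by 0.29, 0.39 and 0.42 at 48 h, each with an adjusted p under 0.05. With hybridisation-control scaling the change was -0.08 (adjusted p = 0.623), against a median of -0.47 for all genes.

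HSPB1 encodes HSP27, a small heat shock protein that holds unfolded clients without ATP and binds actin. Values at 24 h were 14.57, 14.56 and 14.57 in control and 14.71, 14.46 and 14.67 in Aa cells. At 48 h they were 14.52, 14.34 and 14.50 in control and 14.80, 14.45 and 14.70 in Aa cells, with Aa replicate 2 below 2 of the control arrays. The change was 0.05 at 24 h (95% interval -0.20 to 0.30, adjusted p = 0.755) and 0.20 at 48 h (95% interval -0.05 to 0.44, adjusted p = 0.149). At 48 h the Aa array was higher within each of the 3 replicate numbers, and the adjusted p with the block was 0.0451. Without Aa 48 h replicate 2 the change was 0.29 (adjusted p = 0.0437), and with quantile normalization it was 0.27 (adjusted p = 0.0392). With hybridisation-control scaling the sign at 48 h turned (-0.24, adjusted p = 0.215).

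DNAJA1 and DNAJB1 encode J-domain proteins of the cytosol that bring clients to HSP70. DNAJA1 had values at 24 h of 12.45, 12.69 and 12.78 in control and 12.79, 12.97 and 12.94 in Aa cells. These did not overlap, but the change of 0.26 did not pass (SE 0.11, adjusted p = 0.0705); it passed with the block (adjusted p = 0.0187), without control 24 h replicate 3 (adjusted p = 0.0457) with equal array medians (0.0393), with the mean of both probe sets (0.0105) and in the gene's other probe set (0.52, adjusted p = 0.00604). At 48 h values were 12.42, 12.33 and 12.53 in control and 13.11, 13.20 and 13.26 in Aa cells, the Aa arrays all above log2 13 and the control arrays all below. The rise was 1.69-fold (log2 change 0.76, SE 0.11, adjusted p = 0.000115), and 0.96 in the other probe set. With hybridisation-control scaling it was 0.32 (adjusted p = 0.0569).

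DNAJB1, whose product works with HSP70 in taking apart aggregates, did not follow DNAJA1. At 24 h its values were 10.55, 10.35 and 10.57 in control and 10.90, 10.54 and 10.97 in Aa cells, with replicate 2 the lowest in each group. The Aa array was higher within each replicate number, the change was 0.31 (95% interval -0.09 to 0.71, adjusted p = 0.184), and the adjusted p with the block was 0.0191. At 48 h values were 10.58, 9.96 and 10.38 in control and 10.31, 10.03 and 10.51 in Aa cells, and the groups overlapped almost fully. The change at 48 h was -0.02 (95% interval -0.42 to 0.38, adjusted p = 0.93). The sign at 48 h turned in the gene's other probe set (0.22) and without Aa 48 h replicate 2, control 48 h replicate 1 or control 48 h replicate 3, where the change reached up to 0.11.

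BAG3 encodes a nucleotide exchange factor of HSP70 that also directs clients to autophagy together with HSPB8. Values at 24 h were 9.83, 9.79 and 9.78 in control and 10.44, 10.44 and 10.34 in Aa cells. At 48 h they were 9.58, 9.54 and 9.62 in control and 10.56, 10.27 and 10.46 in Aa cells. It was the only member with Aa arrays well above every control array at both times. The rise was 1.52-fold at 24 h (log2 change 0.60, SE 0.0935, adjusted p = 0.000319) and 1.8-fold at 48 h (log2 change 0.85, SE 0.0935, adjusted p = 1.53e-05). BAG3 has 1 probe set, so no second reading was possible. With hybridisation-control scaling the change at 24 h was 0.32 (adjusted p = 0.099).

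FKBP4 encodes FKBP52, a peptidyl-prolyl isomerase that binds HSP90 and assists steroid receptors. Values at 24 h were 9.69, 9.55 and 9.58 in control and 10.16, 9.68 and 9.89 in Aa cells, with a narrow overlap. The change was 0.31 (95% interval -0.06 to 0.67, adjusted p = 0.155, and 0.0208 with the block). At 48 h values were 9.63, 9.00 and 9.39 in control and 10.66, 10.37 and 10.49 in Aa cells. The lowest Aa array was well above the highest control array, and the rise was 2.24-fold (log2 change 1.17, SE 0.167, adjusted p = 0.000108). Another probe set rose by 1.31 at 48 h (adjusted p = 0.000527), with a change of 0.06 at 24 h (adjusted p = 0.857). The 2 further probe sets were under log2 4 on all arrays.

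CHORDC1 encodes a zinc-binding co-chaperone of HSP90 that is itself induced by stress. Values at 24 h were 9.08, 9.14 and 9.63 in control and 9.38, 9.59 and 9.41 in Aa cells, and control replicate 3 was the highest of the 6. The change was 0.18 (95% interval -0.17 to 0.52, adjusted p = 0.372). At 48 h values were 8.97, 8.56 and 8.88 in control and 10.15, 10.05 and 10.14 in Aa cells, the Aa arrays within 0.10 of each other. The rise of 2.49-fold had the largest fitted size of the 9 members (log2 change 1.31, SE 0.156, adjusted p = 2.68e-05). Of the probe sets that name this gene alone, the other was under log2 4 on all 12 arrays.

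**Figure D3:**
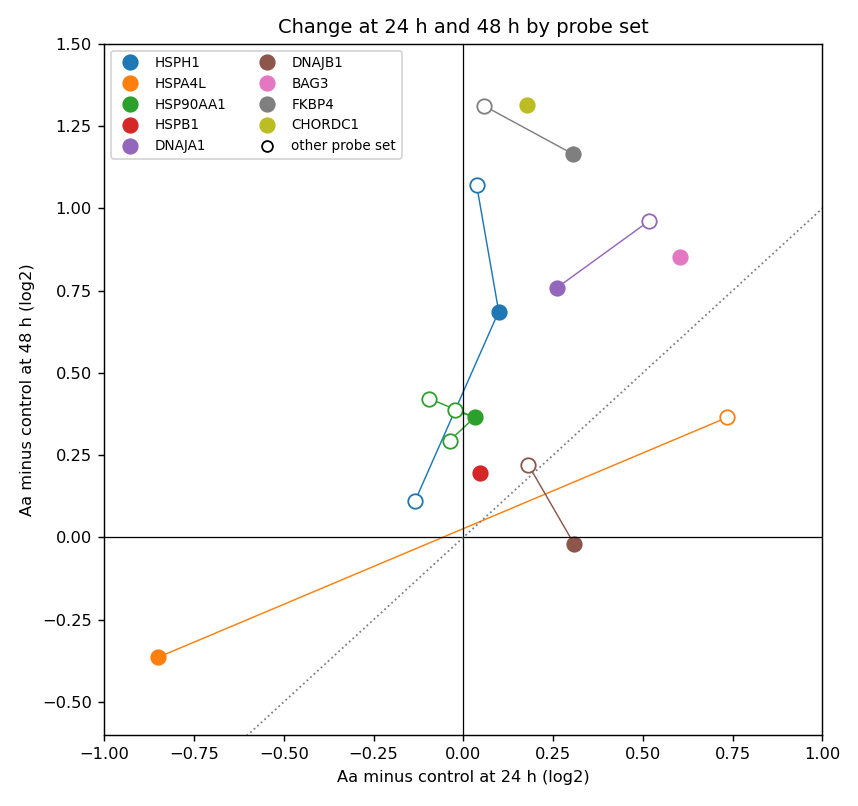
Change at 24 h (x axis) against change at 48 h (y axis), both Aa minus control in log2, for each probe set of the 9 measured members that was over the filter; filled points are the probe sets used, open points the others, joined by lines, and the dotted line marks equal change. Points of HSPA4L lie in opposite quadrants, whereas those of FKBP4, DNAJA1 and HSP90AA1 stay above the dotted line.

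Whether the response differed between the times was tested as the 48 h change minus the 24 h change. It was larger at 48 h for 4 of 9 members and smaller for 0, while 6.80% of all genes were higher and 12.7% lower in this contrast. CHORDC1, in its only usable probe set, differed by 1.14 (SE 0.22, adjusted p = 0.00759) and remained under the threshold without any 1 array. FKBP4 differed by 0.86 (adjusted p = 0.0293), HSPH1 by 0.59 (adjusted p = 0.0413) and DNAJA1 by 0.50 (adjusted p = 0.0459). These 3 lost the call in 7, 10 and 9 of the 12 fits without 1 array, with adjusted p up to 0.0696, 0.0947 and 0.106. With no filter on low values FKBP4 and HSPH1 also lost it (adjusted p = 0.0557 and 0.0554), as did DNAJA1 with the mean of its probe sets (0.0506) or its other probe set (0.105), and HSPH1 in its dimmest probe set (0.532). HSP90AA1 differed by 0.33 (adjusted p = 0.0895, and 0.0469 with the block). It passed with no filter (adjusted p = 0.045), with the mean of its probe sets (0.0445) and in 1 of its 3 other probe sets (0.0425). For BAG3 the difference was 0.25 (adjusted p = 0.206), for HSPB1 0.15 (adjusted p = 0.541), for HSPA4L 0.49 (adjusted p = 0.12) and for DNAJB1 -0.33 (adjusted p = 0.389). With hybridisation-control scaling only CHORDC1 was called in this contrast, where 2.96% of all genes were higher. With equal array medians CHORDC1 and FKBP4 were called, where 5.56% were higher. With the block 5 members were called, all with a larger change at 48 h (15.4% of all genes). Over all genes the count of 2179 differing between the times became 1307 without Aa 24 h replicate 2, 1241 without control 24 h replicate 3, 1436 without control 48 h replicate 1 and 1259 without control 48 h replicate 2.

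The step from 24 h to 48 h was also read within each treatment. In control cells all 9 members had lower means at 48 h than at 24 h in the probe set used, by 0.11 (HSPB1) to 0.48 (CHORDC1). Their median step was -0.21, beside -0.01 for all genes. The other probe sets of DNAJA1 and HSPA4L went upward, by 0.06 and 0.42. Those of HSPH1, DNAJB1, HSP90AA1 and FKBP4 that were over the filter went downward. By limma 0 members passed, and 2 were lower at an unadjusted p under 0.05. Of all genes 0.635% were called (0.277% higher and 0.358% lower). That count of 71 genes became 545 without control 48 h replicate 3 and 9 to 37 without any other array. With the block 0 members passed in this contrast by limma, but 6.65% of all genes were higher and 8.27% lower. With hybridisation-control scaling 5 members were lower, as were 1921 of all 11294 genes. In Aa cells HSPH1 rose from 24 h to 48 h by 0.45 (adjusted p = 0.0217), FKBP4 by 0.60 (adjusted p = 0.022) and CHORDC1 by 0.66 (adjusted p = 0.0106), where 9.65% of all genes were higher and 19.5% lower. The call was lost for HSPH1 without Aa 24 h replicate 3, Aa 48 h replicate 1 or Aa 48 h replicate 3, with adjusted p up to 0.0697. It was lost for FKBP4 without Aa 24 h replicate 2 or 3 or Aa 48 h replicate 1 or 3, with adjusted p up to 0.0827. With hybridisation-control scaling 0 members rose between the Aa times by limma (2.21% of all genes), and DNAJB1, HSPB1 and BAG3 fell, where 58.5% of all genes did. BAG3 changed by 0.02 (adjusted p = 0.887) between the Aa times. DNAJB1 changed by -0.52 (adjusted p = 0.054, and 0.00266 with the block); the call was made without Aa 24 h replicate 2, Aa 48 h replicate 3 or control 48 h replicate 1 or 2, with adjusted p down to 0.0339. DNAJA1 changed by 0.29 (adjusted p = 0.0735, and 0.0182 with the block). All contrasts that share a group share its arrays.

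In 7 of the 9 members the 4 group means stood in 1 order, from control 48 h as the lowest through control 24 h and Aa 24 h to Aa 48 h as the highest; 13.3% of all genes had this order. The order was not set in advance, so this is a description and no test. With hybridisation-control scaling the middle step turned downward for CHORDC1, DNAJA1, HSP90AA1, HSPB1 and HSPH1. The last step then turned for BAG3, DNAJA1, HSP90AA1, HSPB1 and HSPH1. For CHORDC1 the means were 8.80 ± 0.22, 9.28 ± 0.30, 9.46 ± 0.11 and 10.12 ± 0.06 (SD, n = 3), and of neighbours in this order only the last 2 differed past the threshold. For BAG3 they were 9.58 ± 0.04, 9.80 ± 0.03, 10.41 ± 0.06 and 10.43 ± 0.15, and only the middle step passed. The last step alone passed for FKBP4 and HSPH1, and no single step passed for DNAJA1, HSP90AA1 and HSPB1. With the block the middle and last steps passed for DNAJA1 (adjusted p = 0.0187 and 0.0182), and the middle step also for FKBP4 (0.0208). The exceptions to this order were DNAJB1, highest in Aa cells at 24 h, and HSPA4L, highest in control cells at 24 h.

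The wider chaperone network was read from lists of 83 genes that are no members, of which 76 were on the array and 68 were tested. At 24 h 18 were higher and 7 lower, with a median of 0.03 (0.02 for all genes). As shares of the genes tested this was close to the 26.3% higher of all genes and below the 22.8% lower. At 48 h 26 were higher, 11 lower and 31 did not pass, with a median of 0.20 (-0.03 for all genes), where 30.6% of all genes were higher and 33.9% lower. The same shares of all genes are the background for each list below. With hybridisation-control scaling the counts were 7 higher and 19 lower at 24 h and 12 higher and 28 lower at 48 h, where 14.7% and 34.6% of all genes were called at 24 h and 1806 and 5981 of 11294 genes at 48 h. The change was higher at 48 h than at 24 h for 6 and lower for 4, beside 6.80% and 12.7% of all genes, and with the block for 20 and 8, beside 15.4% and 23.1%. Without 1 array these counts were 2 to 12 and 1 to 4, with 12 higher without control 48 h replicate 3 and 2 without control 24 h replicate 3. HSF1, the regulator itself, had 7.00, 6.87 and 6.81 in control and 7.58, 6.91 and 7.23 in Aa cells at 48 h (change 0.35, adjusted p = 0.109, and 0.0197 with the block). This direction was held by 1 of its 2 probe sets at 24 h and also at 48 h. Without Aa 48 h replicate 2 the HSF1 change was 0.51 (adjusted p = 0.0256). With quantile normalization it was 0.43 (adjusted p = 0.0374), and the sign at both times turned with hybridisation-control scaling. The stress-inducible HSP70 genes HSPA1A and HSPA1B have no value here, because no probe set names either of them alone.

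Among the other HSP70 and HSP110 genes, 4 of 9 were tested, of which 2 were higher and 1 lower at 24 h and 3 were higher and 0 lower at 48 h. HSPA4, a relative of HSPH1 and HSPA4L, was the one that fell at 24 h (log2 change -0.74, adjusted p = 0.000365), and its change at 48 h was -0.12 (adjusted p = 0.379). HSPA12A, a distant relative of HSP70, rose 2.14-fold at 24 h and 3.48-fold at 48 h (adjusted p = 3.13e-06), a direction held by 1 of its 2 probe sets. The other cytosolic HSP90 gene, HSP90AB1, which is known as the constitutive form, changed by -0.46 at 24 h (adjusted p = 0.0525, and 0.000339 with the block) and -0.15 at 48 h (adjusted p = 0.47). At 24 h the HSP90AB1 fall passed without Aa 24 h replicate 3, Aa 48 h replicate 3 or control 24 h replicate 1, with adjusted p down to 0.0305. It also passed with a filter at log2 6 (adjusted p = 0.0487), quantile normalization (0.0477), the mean of its probe sets (0.0478) and hybridisation-control scaling (0.00603, and 0.0136 at 48 h). Of 15 other J-domain genes 7 rose and 2 fell at 24 h (26.3% and 22.8% of all genes), and 5 rose and 4 fell at 48 h (30.6% and 33.9%). DNAJC18, a J-domain protein of the ER membrane, was under log2 4 on all 6 Aa arrays, and set to that level there it was at least 2.74-fold lower at 24 h and at least 3.73-fold lower at 48 h. In 2 of its 3 probe sets the change at 24 h was downward. Of 3 other small heat shock genes only HSPB8, the partner of BAG3, rose, by 0.39 at 24 h (adjusted p = 0.0421, a direction held by 1 of 2 probe sets) and 0.56 at 48 h (adjusted p = 0.0051). At 24 h HSPB8 lost the call in 8 of the 12 fits without 1 array, namely without any array of that time, Aa 48 h replicate 1 or control 48 h replicate 2, with adjusted p up to 0.122. It was also lost at 24 h with hybridisation-control scaling (adjusted p = 0.649), the mean of both probe sets (0.251) and no filter on low values (0.0659).

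Of 6 other BAG and exchange factor genes BAG1, which encodes a further HSP70 exchange factor, was the only one higher at either time. Its values at 48 h were 8.73, 8.91 and 8.85 in control and 10.29, 10.28 and 10.61 in Aa cells, a 2.96-fold rise after 2.28-fold at 24 h (adjusted p = 4.84e-06 and 6.57e-05), with 3 of 3 probe sets in that direction. BAG2 and BAG4 were lower at 48 h. Of 14 other co-chaperones of HSP90 and HSP70, 3 rose and 1 fell at 24 h (26.3% and 22.8% of all genes), and 6 rose and 2 fell at 48 h (30.6% and 33.9%). CDC37, which brings kinases to HSP90, had 10.07, 9.63 and 10.28 in control and 11.27, 11.01 and 11.56 in Aa cells at 48 h. It rose 2.44-fold at 48 h (adjusted p = 0.000593) and had a change of 0.03 at 24 h (adjusted p = 0.919). TTC4, another HSP90-binding co-chaperone, rose 1.7-fold at 24 h (adjusted p = 0.00179) and 2-fold at 48 h (adjusted p = 0.000178). STIP1, which bridges HSP70 and HSP90, changed by -0.24 at 24 h (adjusted p = 0.217, and 0.0237 with the block) and by 0.30 at 48 h (adjusted p = 0.11, and 0.00708 with the block). Without control 48 h replicate 3 its change at 48 h was 0.43 (adjusted p = 0.0319).

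Of 12 chaperonin TRiC and prefoldin genes 0 passed at 24 h by limma and 5 rose at 48 h (30.6% of all genes), led by the TRiC subunit gene CCT7 with 0.63 (adjusted p = 0.000158). With hybridisation-control scaling CCT7 and HSPB8 were no longer called at 48 h (adjusted p = 0.227 and 0.574). Of 9 mitochondrial chaperone genes 4 rose and 3 fell at 24 h (26.3% and 22.8% of all genes), and 4 rose and 2 fell at 48 h (30.6% and 33.9%). GRPEL1, the exchange factor of mitochondrial HSP70, rose 1.44-fold at 24 h (adjusted p = 0.0181) and 3.32-fold at 48 h (adjusted p = 4.22e-06). The call at 24 h was lost without Aa 24 h replicate 3 or control 24 h replicate 1 (adjusted p = 0.0646 and 0.0728), and with hybridisation-control scaling (0.24, adjusted p = 0.242). CLPB, a mitochondrial disaggregase, fell 2.91-fold (adjusted p = 0.00107) and 2.75-fold (adjusted p = 0.000985). HSPD1, which encodes the mitochondrial chaperonin HSP60, changed by -0.11 at 24 h (adjusted p = 0.267) and -0.01 at 48 h (adjusted p = 0.93). HSPD1 was lower at 24 h with no filter (adjusted p = 0.026), and with hybridisation-control scaling at both times (0.0172 and 0.00541). Of 4 genes around HSF1 0 passed at 24 h by limma, and at 48 h HSBP1 rose and HSBP1L1 fell by 0.59 on the log2 scale (adjusted p = 0.0036).

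**Figure D4:**
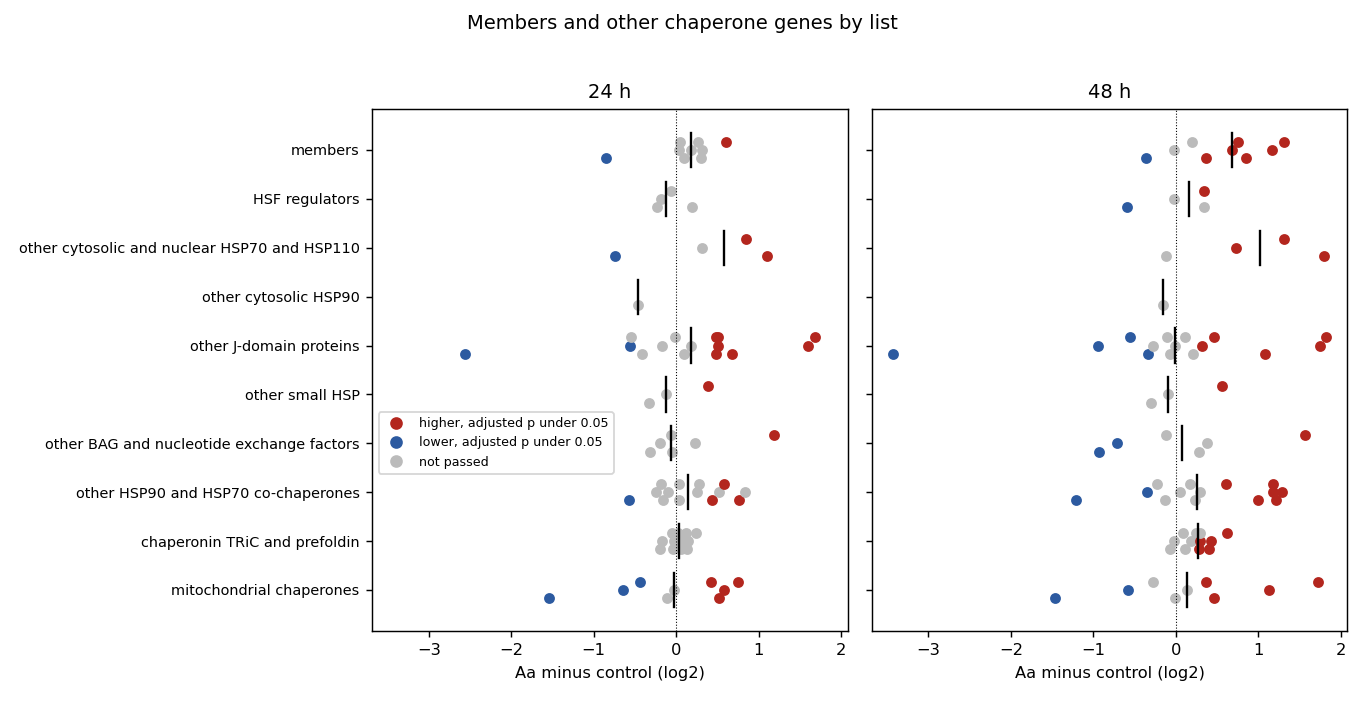
Change from control to Aa (log2, x axis) at 24 h (left) and 48 h (right) for the tested genes of each list (rows), 1 point a gene, with a bar at the list's median; red and blue points have an adjusted p under 0.05. The leftmost point is DNAJC18, whose fitted size carries no order because its Aa values are near background. The bar of the members moves from 0.18 at 24 h to 0.69 at 48 h.

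The tested genes most like the 3 members with the largest changes were found by the root mean square difference of log2 profiles over the 12 arrays, each centred on its own mean. For CHORDC1 they were ICAM3 (0.111), UAP1 (0.167) and CHRNA5 (0.169), where the median gene differed by 0.605. For FKBP4 they were CYB561A3 (0.12), USP11 (0.125) and P3H1 (0.126), with a median of 0.575. For BAG3 they were KIF3C (0.109), LMAN2L (0.11) and ZNF106 (0.111), with a median of 0.501. None of these 9 genes is on the chaperone lists.

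Set beside the start regions, the 3 measured members with 3 units in a row rose at 48 h, with log2 changes of 1.31 (CHORDC1), 0.76 (DNAJA1) and 0.36 (HSP90AA1). At that time 6 of the 9 measured members and 30.6% of all genes were higher. FKBP4 (1.17) was among these 6 members but had no window. The members with separate pairs only were DNAJB1 (-0.02, not passed), HSPB1 (0.20, not passed) and HSPA4L (-0.36 in the probe set used). HSPA8, the fourth member with 3 units in a row, has no value of its own, and the 4 probe sets that list it beside other genes fell at 48 h by 0.61 to 0.76 on the log2 scale. BAG3 (0.85) and HSPH1 (0.69) rose without a pair in their windows, and elements outside these windows were not looked for. No test was made over these few members.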

How the data were processed

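The deposited table holds log2 expression values for 54675 probe sets on 12 arrays, made by the authors with GCRMA, per the submitters' processing notes; the sources used here do not give its version or say whether all arrays were normalised jointly. GCRMA as usually run equalises the arrays' distributions, which hides shifts common to most genes. Log base 2 was read from the values. In the platform annotation 41091 probe sets named 1 gene, 1801 several and 11721 none, beside 62 controls, and 41037 of the first matched RefSeq by Entrez number. A gene was its highest-mean probe set and was tested if over log2 4 on at least 3 arrays (11184 of 19775 genes). Limma 3.58.1 in R 4.3.3 fitted 4 group means (8 residual degrees of freedom, 2.79 from the prior). The number of arrays limits the precision (median SE of a change within a time 0.161). On simulated arrays of 11184 genes the fit recovered 70% of log2 changes of 1 and 24% of 0.5 at 24 h, and 69% and 23% at 48 h. Only 100 genes per size of change were altered there, far fewer than were called in the data, and the samples were unpaired. These shares therefore do not give the power of the real fits. Same-numbered samples of different groups had deviations that correlated at 0.279 to 0.577 in 18 pairs, so the numbers pair the samples. What they share is not given. In 36 pairs with different numbers the correlations were -0.371 to -0.0286. Deviations within a group of 3 cancel out, so these negative values are no separate sign of the pairing. Named were the members, the gene with the largest passing change per chaperone list and time, and HSF1, HSPA1A, HSPA1B, HSP90AB1, HSPD1, STIP1, ACTB and GAPDH; ACTB and GAPDH changed by -0.09 and 0.03 at 24 h (limma adjusted p = 0.586 and 0.782), and by -0.29 and -0.08 at 48 h (adjusted p = 0.0634 and 0.423, ACTB 0.00623 with the block). HSPA4, BAG2, BAG4 and HSBP1 were named outside this rule, and no alternatives are given for them. Members, lists and alternatives were chosen with earlier results of these data known. Alternatives were the replicate block, the filter, quantile, median and hybridisation-control scaling, other probe sets, fits within a time and leaving out each array. Probe sets naming several genes gave no gene value.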

Additional observations from a re-analysis of the deposited data

Results flagged for a closer look

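The response to Aa differed between the times for 4 members in a test of the difference itself (limma, 48 h change minus 24 h change). Of all genes 6.80% were higher and 12.7% lower in this contrast. The difference was 0.59 for HSPH1, 0.50 for DNAJA1, 1.14 for CHORDC1 and 0.86 for FKBP4 on the log2 scale. Only CHORDC1 kept the call without any 1 array. HSPH1, DNAJA1 and FKBP4 lost it in 10, 9 and 7 of the 12 such fits. For each of these 4 genes the Aa mean was higher and the control mean lower at 48 h than at 24 h. The control step, from which part of each difference comes, was -0.14, -0.21, -0.48 and -0.26 in the same order, and none of these control steps passed the test by limma.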

How the results depend on the processing

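The 6 members higher at 48 h kept that call without any 1 array, and BAG3 and HSPA4L kept theirs at 24 h; HSPA4L at 48 h and the differences between times of HSPH1, DNAJA1 and FKBP4 did not. The replicate block changed no member call beyond those given with the genes. The median SE of 0.161 limits what 3 arrays a group can show, and 3 members gave 1 usable probe set. Where a cause is not given, the cause was not tested.

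With the replicate block the members higher at 24 h were 4, the pathway genes lower at 24 h 15, and those differing between the times 20 higher and 8 lower. Over all genes the block called 4314 for the difference between the times, 1669 between the control times and 4987 between the Aa times. In the last contrast 1 member was lower, where 28.5% of all genes were. With hybridisation-control scaling 0 members were higher at 24 h, 3 at 48 h, 1 in the difference and 0 between the Aa times. It put 3 members lower between the Aa times and 5 between the control times. The pathway genes were then 7 higher and 19 lower at 24 h, 12 and 28 at 48 h, and 1 higher in the difference. Over all genes this scaling called 1953 between the control times and 6852 between the Aa times, and it moved the upward share of calls in the difference from 34.9% to 17.7%, between the control times from 43.7% to 1.64% and between the Aa times from 33.1% to 3.65%.

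Equal array medians gave 2 members higher at 24 h (27.6% of all genes), 2 in the difference (5.56%) and 1 lower between the Aa times (21.9%). A filter at log2 6 also gave 1 lower between the Aa times (21.5%). The mean of all probe sets gave 2 higher and 0 lower at 24 h (27.2% and 23.2% of all genes). The member lower at 48 h became 0 with no filter, quantile normalization, equal medians, the mean of all probe sets or only that time's 6 arrays. Pathway genes lower in the difference were 2 with quantile normalization and 2 with the mean of probe sets. Without 1 array the genes called were 4816 to 5565 at 24 h, 6568 to 7215 at 48 h, 1241 to 2597 in the difference, 9 to 545 between the control times and 2304 to 3259 between the Aa times. Members higher were then 1 to 2 at 24 h, 1 to 4 in the difference and 1 to 3 between the Aa times, and members lower 0 to 1 at 48 h and 0 to 1 between the Aa times. Pathway genes in the difference were 2 to 12 higher and 1 to 4 lower.

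Signs turned with hybridisation-control scaling at 24 h for CDC37 -0.25, CHORDC1 -0.10, DNAJA1 -0.0221, GAPDH -0.25, HSF1 -0.0959, HSP90AA1 -0.25, HSPB1 -0.24 and HSPH1 -0.18. They turned at 48 h for HSF1 -0.0929, HSP90AA1 -0.0759, HSPB1 -0.24 and STIP1 -0.15, and in the difference for HSPB1 -0.00923. Between the Aa times they turned for BAG3 -0.45, DNAJA1 -0.19, HSP90AA1 -0.28, HSPA4L -0.29, HSPB1 -0.44 and HSPH1 -0.0233. Equal medians turned CCT7 0.00895 at 24 h, and BAG3 -0.0236 and HSPB1 -0.0107 between the Aa times. The mean of probe sets turned HSF1 -0.0893 and HSP90AA1 -0.0313 at 24 h, DNAJB1 0.10, HSPA4L 0.000339 and HSPD1 0.14 at 48 h, and HSPA4L 0.056 between the control times. Quantile normalization turned DNAJB1 0.0273, GAPDH 0.0316 and HSPD1 0.0596 at 48 h. Another probe set of HSPA4L gave 0.73 at 24 h, 0.36 at 48 h, -0.37 for the difference and 0.42 between the control times. Others gave 0.22 for DNAJB1 at 48 h and 0.0403 for its difference, and 0.0638 for DNAJA1 between the control times. At 24 h they gave -0.0245, -0.0943 and -0.0378 for HSP90AA1 and -0.13 for HSPH1. Without 1 array the sign could turn at 24 h for CDC37 (-0.10 to 0.25), HSPB1 (-0.00271 to 0.12), ACTB (-0.17 to 0.011), HSP90AA1 (-0.0335 to 0.0822), GAPDH (-0.0108 to 0.0578) and CCT7 (-0.0623 to 0.00873). It could turn at 48 h for DNAJB1 (-0.19 to 0.11) and HSPD1 (-0.0219 to 0.00473), and between the Aa times for HSPB1 (-0.0414 to 0.13) and BAG3 (-0.0407 to 0.10).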

Other observations

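The 4 probe sets that list HSPA8 beside the small nucleolar RNA genes SNORD14C and SNORD14D were entered into the fit without a gene name, an alternative chosen after seeing the data. Their means were 14.80, 14.41, 15.09 and 15.05 in control cells at 48 h and 14.12, 13.65, 14.40 and 14.44 in Aa cells. All 4 fell at 48 h, by limma changes of -0.68, -0.76, -0.69 and -0.61 (adjusted p from 0.000167 to 0.000522). At 24 h the changes were -0.30, -0.26, -0.22 and -0.27, of which the first and the last passed (adjusted p = 0.0304 and 0.0478). The annotation does not say which of the 3 genes these values belong to. Their direction at 48 h was opposite to that of the 6 members that rose.

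A probe set that lists CHORDC1 beside NAALAD2 read 4.70 in control and 8.40 in Aa cells at 24 h, and 4.25 and 8.35 at 48 h. Its limma changes of 3.70 (adjusted p = 2.22e-06) and 4.10 (adjusted p = 6.04e-07) were far from those of the probe set that names CHORDC1 alone, which were 0.18 and 1.31. The 48 h change minus the 24 h change of the shared probe set was 0.40 (limma adjusted p = 0.51). Which of the 2 genes this probe set reports is not settled by the annotation.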
